A study of Danio rerio with 6 samples.

Results

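The cardiac jelly genes described here are 10 genes of hyaluronan and versican metabolism, taken by their symbols from the 31701 genes measured in whole zebrafish hearts. They are the versican genes *vcana* and *vcanb*, the hyaluronan synthase genes *has1*, *has2* and *has3*, the link protein genes *hapln1a*, *hapln1b* and *hapln3*, the hyaluronidase gene *tmem2* and the protease gene *adamts9*. Hearts were dissected by hand between 57 and 59 hours post fertilization from larvae labelled mutant and from wild-type (WT) siblings of theirs. The series title names Wwtr1, a coactivator of transcription in the Hippo pathway, as the subject of the study. The mutant allele, its zygosity and the strain were not stated in the labels. Each genotype had 3 libraries, each from a pool of 23 hearts. Values of 1 library are therefore averages over animals and over all cell types of the heart.

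Cardiac jelly is the extracellular matrix between the myocardium and the endocardium of the embryonic heart. It is built on hyaluronan, a long sugar polymer made at the plasma membrane by hyaluronan synthases, to which the chondroitin sulphate proteoglycan versican binds, held in place by link proteins. The matrix swells at the atrioventricular canal, where valves form, and is remodelled or lost in the chambers as trabeculae grow, in part through enzymes that cut hyaluronan and proteases that cut versican.

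The genes of versican and of its link protein lie side by side in the annotation, on the GRCz10 assembly. On chromosome 5, *vcana* (ENSDARG00000103515, plus strand, 45860895 to 45887050) faces *hapln1a* (ENSDARG00000089769, minus strand, 45890469 to 45905545) across 3.42 kb. On chromosome 10, *vcanb* (ENSDARG00000009401, plus strand, 43360298 to 43434580) faces *hapln1b* (ENSDARG00000068516, minus strand, 43441820 to 43506534) across 7.24 kb. The third link protein gene, *hapln3* (ENSDARG00000045802), is on chromosome 25 (plus strand, 19103280 to 19107924). Its neighbour at a distance of 7996 bases, *acanb*, encodes aggrecan, the cartilage relative of versican. The synthase genes *has2* (ENSDARG00000036987, 15479514 to 15497339) and *has1* (ENSDARG00000042983, 25025345 to 25030305) both lie on the minus strand of chromosome 16. On chromosome 18, *has3* (ENSDARG00000057210, minus strand, 17034374 to 17048364) overlaps *chtf8* of the opposite strand by 1439 bases. The last of the 10 are *tmem2* (ENSDARG00000061600, chromosome 5, plus strand, 25160001 to 25213470) and *adamts9* (ENSDARG00000077778, chromosome 11, plus strand, 18995537 to 19065460), and a U6 small nuclear RNA gene lies inside the span of *adamts9* on the other strand. None of the 10 lies on chromosome 22, where *wwtr1* is.

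**Figure D1:**
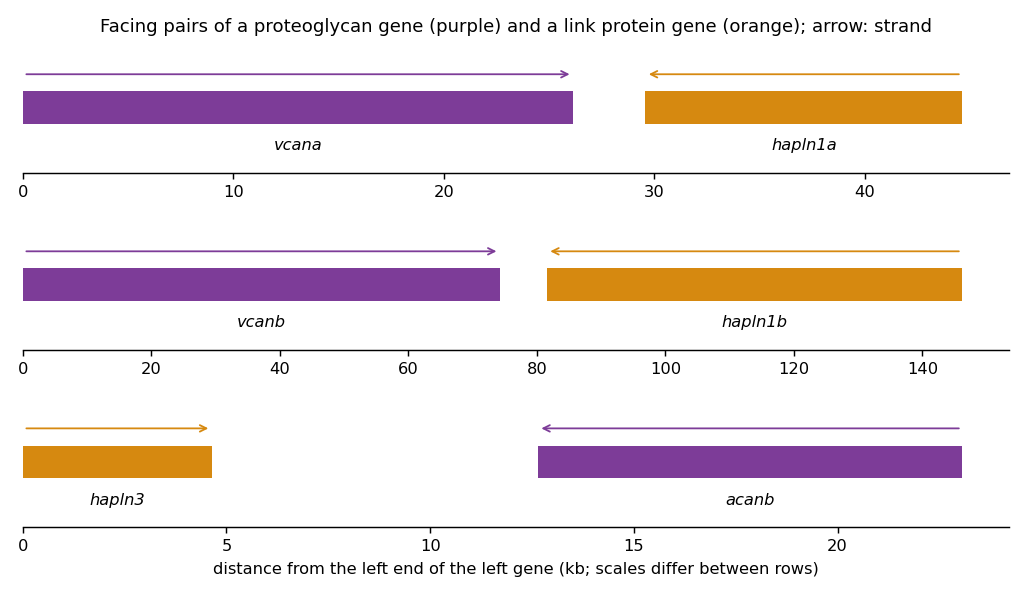
The 3 facing gene pairs, with distance in kb from the left end of the left gene on the x axis of each row, genes as bars and strands as arrows. In each pair a proteoglycan gene and a link protein gene point at each other, with gaps of 3418, 7239 and 7996 bases from top to bottom.

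The deposited values are normalised read counts, whole numbers that summed to between 21068538 and 21968397 in the mutant libraries and to between 19187058 and 25227868 in the WT libraries. Ribosomal RNA, nuclear and mitochondrial, took 41.0% to 41.4% of the mutant totals and 40.4% to 43.9% of the WT totals. Transcripts of *wwtr1* averaged 126 ± 25.5 in mutant and 416 ± 54.5 in WT hearts (SD, n = 3 each) without overlap. The hearts carried their defining transcripts, with all 10 cardiomyocyte markers and all 10 endocardial and endothelial markers measured. RNA of other tissues was present as well, with epidermal markers at 52947 to 62766 in mutant and 45086 to 66864 in WT hearts and skeletal muscle markers at 22695 to 30094 in mutant and 22134 to 37379 in WT hearts. The 10 cartilage markers found summed to 8173, 6634 and 5495 in mutant replicates 1 to 3, against 10265, 6020 and 5364 in WT replicates 1 to 3, so that replicate 1 of each genotype held the most. All 6 tested liver and yolk markers had a negative log2 change (median −0.71). Their sums were 8455 to 15272 in mutant and 13538 to 21826 in WT hearts. All 6 red blood cell markers had a positive log2 change (median 0.33), with sums of 74951 to 130494 in mutant and 81374 to 92355 in WT hearts. In the limma test described below, the 6 liver and yolk markers were all lower at an unadjusted p under 0.05, against 3.35% of all tested genes. Of the red blood cell markers, 3 were higher at that p, against 3.25%. None of either list passed the adjusted p.

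Of the 10 cardiac jelly genes, 9 had a value of 10 or more in 3 or more libraries and were tested, as part of a fit of 18901 genes. None passed an adjusted p of 0.05 by limma, a linear model with moderated variances, with Benjamini-Hochberg adjustment over all genes tested. The threshold was passed by 7 genes of the whole table, or 0.037%. Of the 9, 3 had an unadjusted p under 0.05: *vcana* and *has2* were higher in mutant hearts, where 3.25% of all tested genes were, and *adamts9* was lower, where 3.35% were. The same 3 were those whose mutant and WT values did not overlap, against 5.57% of tested genes that did not overlap with mutant higher and 5.53% with mutant lower. The median log2 change of the 9 was 0.13, and that of all tested genes was −0.0029. These shares describe genes that were named with earlier results of the same libraries known. In pooled hearts, a change in the number of cells of a type and a change in RNA per cell cannot be told apart.

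**Figure D2:**
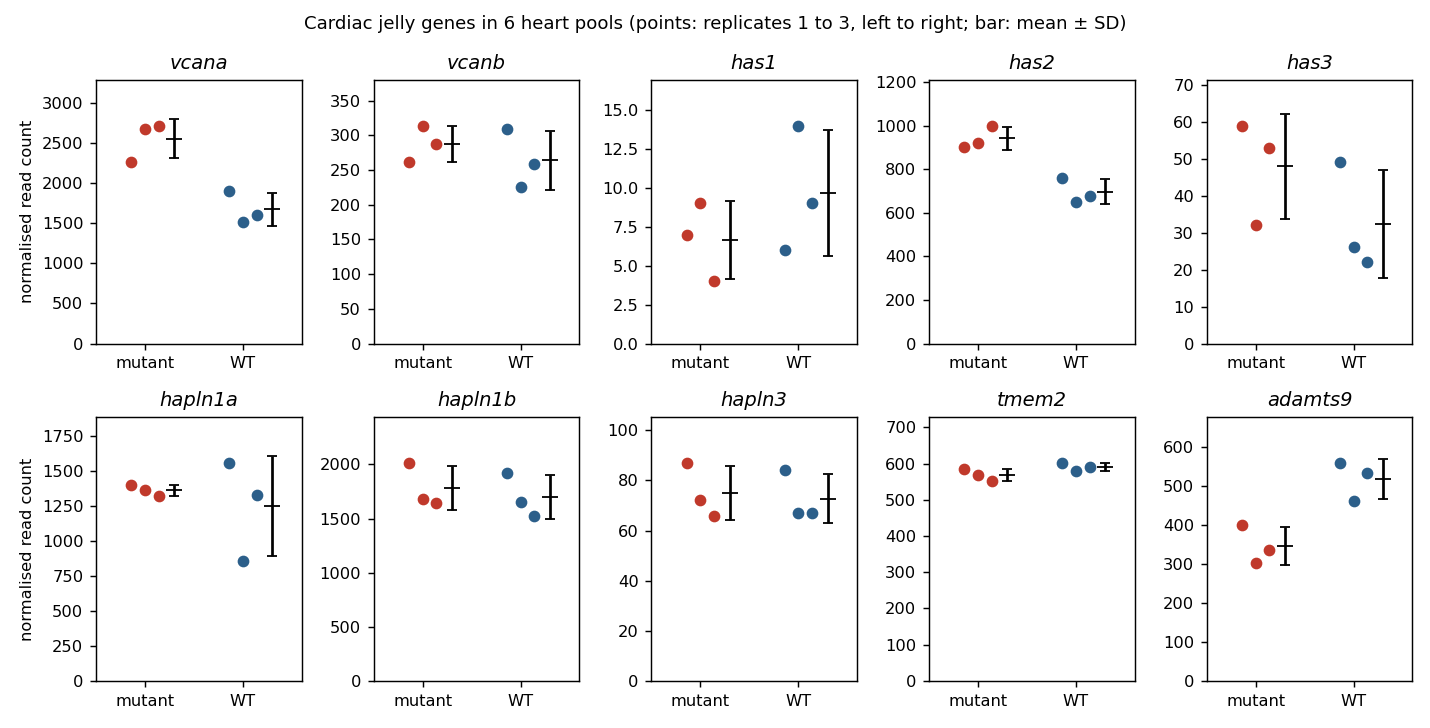
Normalised read counts of the 10 genes (y axis, from 0, a separate scale for each gene) in the 3 mutant and 3 WT libraries, with points for replicates 1 to 3 from left to right and bars for the mean ± SD. The mutant points of *vcana* and *has2* lie above all WT points, those of *adamts9* lie below all WT points, and the groups of the other 7 genes overlap.

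Versican is the large proteoglycan that fills the jelly, and zebrafish keep 2 genes for it. The gene *vcana* stood at 2267, 2677 and 2715 in mutant replicates 1 to 3, against 1899, 1517 and 1595 in WT replicates 1 to 3. Every mutant library was above every WT library, and the closest pair was the replicates numbered 1. The mean was 2553 ± 248 in mutant and 1670.3 ± 202 in WT hearts (SD, n = 3 each), a ratio of 1.53. The log2 change, mutant over WT, was 0.61 with a standard error (SE) of 0.102 and a 95% interval of 0.39 to 0.83, not corrected for the number of genes. Of the 18901 genes, 8 had a smaller unadjusted p, yet the adjusted p of 0.0576 (limma) missed the threshold. The outcome turned on single libraries. Without WT replicate 1 the log2 change was 0.71 (limma, adjusted p = 0.0192), and without WT replicate 2 it was 0.55 (limma, adjusted p = 0.0484). With any other single library left out, *vcana* missed the threshold (limma, adjusted p 0.0756 to 0.275). Without WT replicate 2 its unadjusted p rose from 2.89e-05 to 1.08e-04 (limma). In that run 34 genes were called higher and 12 lower, against 2 and 5 with all libraries. That pass thus came with more calls over all genes and not with a smaller p of *vcana*.

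The paralogue *vcanb* stood at 262, 314 and 287 in mutant and at 309, 225 and 258 in WT replicates 1 to 3. Here the groups overlapped, since WT replicate 1 exceeded 2 of the 3 mutant libraries. The log2 change was 0.13 (SE 0.133, 95% interval −0.15 to 0.42, limma adjusted p = 0.933). It ran from 0.02 without WT replicate 2 to 0.25 without WT replicate 1. The ratio of *vcana* to *vcanb* reads within a library was 8.65, 8.53 and 9.46 in mutant and 6.15, 6.74 and 6.18 in WT replicates 1 to 3. That ratio did not overlap between genotypes and averaged 8.88 ± 0.507 in mutant and 6.36 ± 0.334 in WT hearts. Values of *vcana* alone were already apart in the same libraries, so the separation of the ratio is no separate evidence. The ratio was not tested. Because reads grow with transcript length, which was not used here, the ratio compares genotypes and not the 2 genes. How reads that match both paralogues were counted was not stated in the labels.

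Hyaluronan synthases extend the polymer and push it out of the cell. The zebrafish heart is known to need *has2* for its cushions. That gene stood at 902, 922 and 1000 in mutant and at 761, 650 and 677 in WT replicates 1 to 3. The lowest mutant library exceeded the highest WT library. The mean was 941 ± 51.8 in mutant and 696 ± 57.9 in WT hearts, a ratio of 1.35. Its log2 change of 0.44 (SE 0.0938, 95% interval 0.24 to 0.64) had a limma adjusted p of 0.216, and it missed the threshold with any one library left out (adjusted p 0.124 to 0.497).

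The other synthases were scarce. Values of *has3* were 59, 32 and 53 in mutant and 49, 26 and 22 in WT replicates 1 to 3. The ranges overlapped, and replicate 1 was the highest library of each genotype. The log2 change of 0.59 was nearly as large as that of *vcana*, but its SE of 0.332 gave a 95% interval of −0.11 to 1.30 (limma, adjusted p = 0.817). With single libraries left out it ran from 0.37 without WT replicate 3 to 0.93 without WT replicate 1 (limma, adjusted p 0.622 to 0.961). Strand use in counting is not given, so *has3* reads in the stretch shared with *chtf8* cannot be assigned, although *chtf8* itself stood no higher than 12 in any library. For *has1*, values were 7, 9 and 4 in mutant and 6, 14 and 9 in WT replicates 1 to 3, which corresponds to about 3.80 to 12.3 reads per library. It did not meet the value filter. With the filter lowered to 1 in a single library, its log2 change was −0.46 with an SE of 0.546 (limma, adjusted p = 0.936). The ratio of *has2* reads to those of *has1* and *has3* together was 17.9 ± 4.42 in mutant and 17.3 ± 4.10 in WT hearts, and overlapped.

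**Figure D3:**
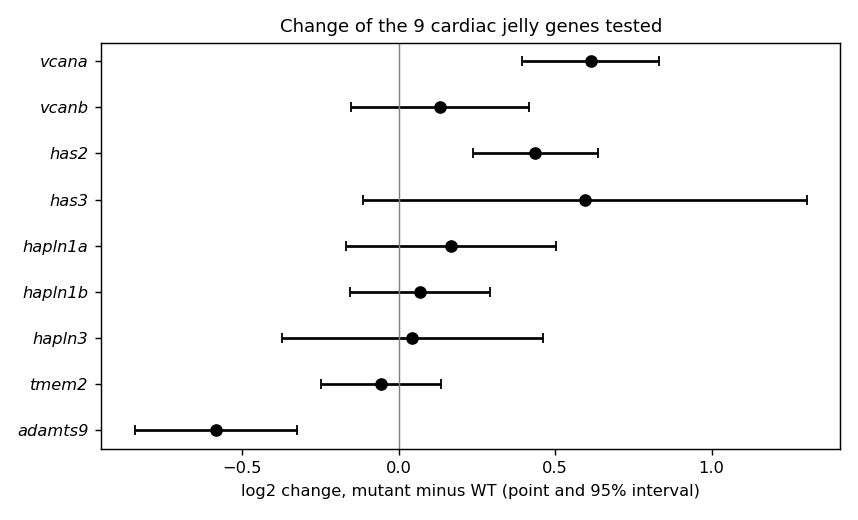
The log2 change of each tested gene on the x axis, mutant minus WT, with its 95% interval as bars and the genes down the y axis. The intervals of *vcana* (0.39 to 0.83), *has2* (0.24 to 0.64) and *adamts9* (−0.84 to −0.33) leave out 0, and those of the other 6 genes include it.

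Link proteins clamp versican to the hyaluronan chain. Among them *hapln1a* stood at 1402, 1365 and 1323 in mutant and at 1559, 860 and 1331 in WT replicates 1 to 3. Mutant libraries spread little, with an SD of 2.90% of the mean, while the WT SD was 28.5% of the mean, with WT replicate 2 low. The log2 change of 0.17 (SE 0.157, 95% interval −0.17 to 0.50, limma adjusted p = 0.920) took its sign from that library, and without WT replicate 2 it was −0.08. The ratio of *vcana* to its facing neighbour *hapln1a* was 1.88 ± 0.230 in mutant and 1.39 ± 0.321 in WT hearts. That ratio overlapped between genotypes, again through WT replicate 2.

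The paralogue *hapln1b* stood at 2015, 1684 and 1648 in mutant and at 1924, 1652 and 1528 in WT replicates 1 to 3. Replicate 1 was the highest in both genotypes, and the means of 1782 ± 202 in mutant and 1701 ± 203 in WT hearts differed by less than the spread within either. Its log2 change was 0.07 (SE 0.105, 95% interval −0.16 to 0.29, limma adjusted p = 0.961). The low *hapln3* showed the same layout, at 87, 72 and 66 in mutant and 84, 67 and 67 in WT replicates 1 to 3, with a log2 change of 0.04 (SE 0.195, 95% interval −0.37 to 0.46, limma adjusted p = 0.986). Its neighbour *acanb* stood at 70, 22 and 26 in mutant and at 63, 17 and 17 in WT replicates 1 to 3. In all, 6 of the 10 genes were highest in replicate 1 of both genotypes: *has3*, the 3 link protein genes, *tmem2* and *adamts9*. The share of all tested genes with that layout was not computed. Replicate 1 also had the highest sums of cartilage, red blood cell and epicardial markers in both genotypes. Sums of cardiomyocyte, endocardial and atrioventricular canal markers were highest in mutant replicate 2 and WT replicate 1. Those of epidermal, skeletal muscle, and liver and yolk markers were highest in mutant replicate 3 and WT replicate 2. Single epicardial markers differed, with *tcf21* at 77, 92 and 106 and *sema3fb* at 1008, 821 and 819 in WT replicates 1 to 3. Red blood cell sums were 130494, 74951 and 106325 in mutant and 92355, 83456 and 81374 in WT replicates 1 to 3. The part of these tissues in the values was not tested.

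Removal of the jelly is represented by *tmem2* and *adamts9*. The cell-surface hyaluronidase gene *tmem2*, which in zebrafish is known to limit the atrioventricular canal, stood at 584, 569 and 551 in mutant and at 602, 579 and 590 in WT replicates 1 to 3. It varied little, with an SD of 2.91% of the mean in mutant and 1.95% in WT hearts. Its means of 568 ± 16.5 in mutant and 590.3 ± 11.5 in WT hearts gave a log2 change of −0.06 (SE 0.0895, limma adjusted p = 0.963). The 95% interval ran from −0.25 to 0.14.

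The metalloprotease gene *adamts9*, whose product cuts versican in mammals, stood at 401, 304 and 335 in mutant, against 560, 461 and 535 in WT replicates 1 to 3. All mutant libraries were below all WT libraries. The mean of 347 ± 49.5 in mutant and 519 ± 51.5 in WT hearts is a ratio of 0.668, or a log2 change of −0.58 (SE 0.121, 95% interval −0.84 to −0.33). The limma adjusted p was 0.187, and only without WT replicate 2 among single libraries left out did it pass, with a log2 change of −0.67 (adjusted p = 0.0478). Its ratio to *vcana* moved the most of those computed. Reads of *vcana* per *adamts9* read were 5.65, 8.81 and 8.10 in mutant and 3.39, 3.29 and 2.98 in WT replicates 1 to 3, 2.34 times as high in mutant hearts and without overlap. Reads of *has2* per *tmem2* read were 1.54, 1.62 and 1.81 in mutant and 1.26, 1.12 and 1.15 in WT replicates 1 to 3. That was 1.41 times as high in mutant hearts, also without overlap. These ratios were not tested, since both of their genes were chosen with their direction known.

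Versican and hyaluronan of the cushions are made largely at the atrioventricular canal, by myocardium and endocardium, so the markers of those cells were set beside them. The 9 canal markers other than the cardiac jelly genes summed to 13559, 14287 and 13837 in mutant and to 12979, 11827 and 11899 in WT replicates 1 to 3, which did not overlap. The largest part was *notch1b*, at 6118, 6734 and 6372 in mutant and 6004, 5883 and 5573 in WT replicates 1 to 3. Its log2 change was 0.14 (limma, adjusted p = 0.841). The markers *twist1b* and *spp1* had the lowest means of the 9 and added little to the sum. Of these 9, 8 had a log2 change above 0, 7 did not overlap with mutant higher, 0 passed the adjusted p by limma and 7 had an unadjusted p under 0.05, 6 higher and 1 lower. Over all tested genes, 5.57% did not overlap with mutant higher, and 3.25% were higher and 3.35% lower at that p. The list was drawn up with results of these libraries known, and single markers of the canal, endocardium and epicardium were picked with their values in view. The transcription factor gene *twist1b*, known from valve-forming cells, averaged 351 ± 46.2 in mutant and 228 ± 25.0 in WT hearts without overlap. The matrix protein gene *spp1* averaged 209 ± 65.5 in mutant and 122 ± 14.6 in WT hearts, also without overlap. The flow-responsive *klf2a*, the 1 marker below 0, averaged 507 ± 43.6 in mutant and 631 ± 84.2 in WT hearts and overlapped. The 10 endocardial and endothelial markers summed to 12107 to 13142 in mutant and 10162 to 11483 in WT hearts, 1.17 times as high in mutant hearts and without overlap. Only *cdh5*, *tie1* and *nfatc1*, 3 of the 10, did not overlap, and *nfatc1* is also on the canal list. The vascular cadherin gene *cdh5* averaged 5571 ± 384 in mutant and 4492 ± 555 in WT hearts, while the growth factor receptor genes *kdrl* and *tek* had log2 changes of −0.03 and −0.09. By contrast, sums of the 10 cardiomyocyte markers overlapped (335446 to 367867 in mutant and 330964 to 384582 in WT hearts).

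The epicardium, the outer layer of the heart, had 5 of 6 markers below 0, with a median log2 change of −0.32. Of the 6, 2 did not overlap, both lower. Over all tested genes, 11.1% did not overlap in either direction and 5.53% with mutant lower. The epicardial transcription factor gene *tcf21* stood at 57, 41 and 31 in mutant and at 77, 92 and 106 in WT replicates 1 to 3 (limma, adjusted p = 0.224). The other, *wt1b*, averaged 35.3 ± 3.21 in mutant and 50.3 ± 16.2 in WT hearts (limma, adjusted p = 0.83). Values of *wt1b* were 33, 34 and 39 in mutant and 40, 42 and 69 in WT replicates 1 to 3. Its groups were thus barely apart, at 39 against 40. Sums of the 6 were 1540, 1453 and 1490 in mutant and 1726, 1502 and 1695 in WT replicates 1 to 3, which overlapped. The largest part of each sum was *sema3fb*, the 1 marker above 0. It stood at 869, 918 and 970 in mutant and at 1008, 821 and 819 in WT replicates 1 to 3. The part of these endocardial, canal and epicardial shifts in the cardiac jelly values was not tested.

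The 3 genes whose groups did not overlap were also set against those sums, against the epicardial one after its values were seen. These genes were chosen for that separation in the same libraries, so non-overlap of the quotients is no separate evidence. Per 1000 reads of the canal markers, *vcana* had 167, 187 and 196 in mutant and 146, 128 and 134 in WT replicates 1 to 3, a ratio of 1.35. For *has2* the same quotient was 66.5, 64.5 and 72.3 in mutant and 58.6, 55.0 and 56.9 in WT replicates 1 to 3, a ratio of 1.19. For *adamts9* it ran from 21.3 to 29.6 in mutant and from 39.0 to 44.96 in WT hearts, a ratio of 0.591. With the endocardial sum as denominator the ratios were 1.30, 1.15 and 0.572 for *vcana*, *has2* and *adamts9*, and the genotypes did not overlap in any of the 3. The same held with the cardiomyocyte sum, at ratios of 1.55, 1.37 and 0.678, and with the epicardial sum, at ratios of 1.68, 1.49 and 0.733. The largest part was *notch1b* in the canal sum, *cdh5* in the endocardial sum and *sema3fb* in the epicardial sum. It was *ttn.2* in the cardiomyocyte sum and *col2a1a* in the cartilage sum. Quotients to single markers such as *tcf21* were not computed, so these ratios do not stand for each marker of a list. With the cartilage sum, whose own range was wide, the genotypes overlapped for each of them.

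**Figure D4:**
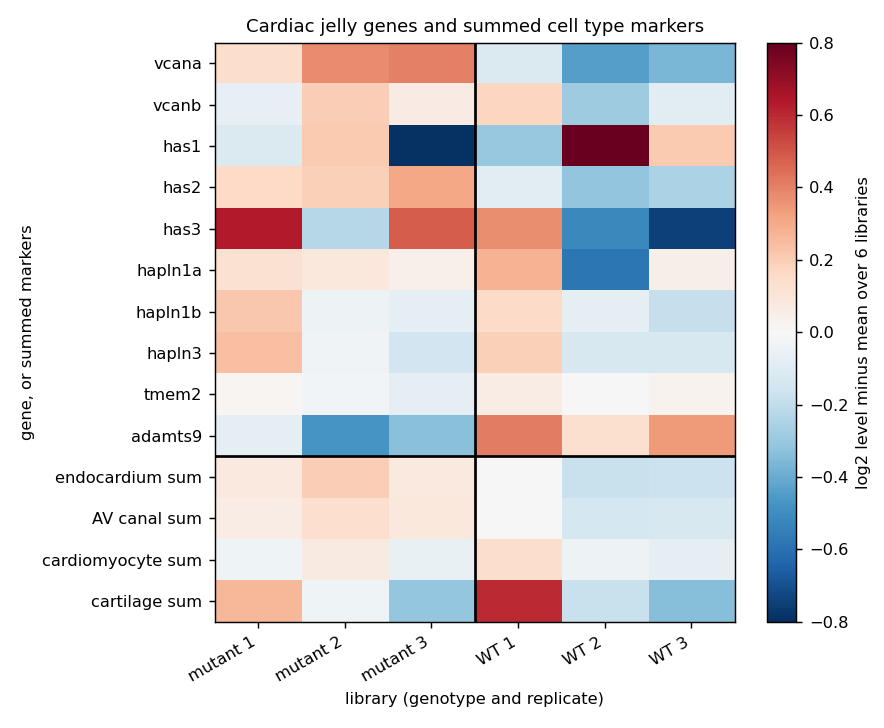
Log2 levels of the 10 genes and, below the line, of summed markers without those genes (rows), each minus its mean over the 6 libraries (columns, mutant left of WT), with red above and blue below the mean. Endocardial and atrioventricular (AV) canal sums are higher in every mutant than in every WT library, as are *vcana* and *has2*, and the cartilage sum is highest in replicate 1 of each genotype.

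The wider pathway was covered by 5 lists, and no member of any passed over all genes tested (limma), where 7 of 18901 did. Enzymes that make the sugar precursors of hyaluronan had 10 tested genes, with a median log2 change of 0.02. In 1 of the 10 the groups did not overlap, with mutant lower, against 11.1% of all tested genes in either direction. It was also the only one at an unadjusted p under 0.05, where 3.25% of all tested genes were higher and 3.35% lower. That gene was *uap1l1*, a relative of the pyrophosphorylase that makes UDP-N-acetylglucosamine, at 50.7 ± 6.35 in mutant and 71 ± 8.89 in WT hearts. The more abundant *ugp2a*, which makes UDP-glucose, averaged 478 ± 26.4 in mutant and 466 ± 52.0 in WT hearts, and *ugp2b* averaged 227 ± 22.5 in mutant and 202 ± 24.2 in WT hearts. The table has 2 genes of the symbol *gfpt1*, which opens the hexosamine pathway, and their log2 changes were both 0.05. Of 18 hyaluronidase and receptor genes, 13 were tested, with a median of −0.10, 10 below 0 and 0 at an unadjusted p under 0.05. Of the 13, 1 did not overlap, against 11.1% of all tested genes in either direction. That was the scavenger receptor gene *stab1*, at 472, 512 and 507 in mutant and 611, 584 and 518 in WT replicates 1 to 3. The most abundant of the others overlapped: *cemip*, whose product takes part in cutting hyaluronan in mammals (302 ± 86.4 in mutant and 330 ± 20.9 in WT hearts), *hmmr*, a hyaluronan-binding motility receptor (289 ± 32.9 in mutant and 286 ± 9.54 in WT hearts), and the hyaluronidase gene *hyal2b* (261 ± 31.0 in mutant and 273 ± 62.5 in WT hearts).

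Other proteoglycan and link protein genes numbered 12 tested of 16 found, with a median log2 change of 0.08 and 0 at an unadjusted p under 0.05. Of the 12, 1 did not overlap, against 11.1% of all tested genes in either direction. It was the low fibromodulin gene *fmodb*, at 6, 7 and 8 in mutant and 11, 12 and 10 in WT replicates 1 to 3. All its mutant values lay below the filter value of 10, so it was tested only through its WT libraries. With such values, passing the filter fixed the non-overlap and its direction, so that non-overlap is no evidence. The log2 change was −0.59 (limma, adjusted p = 0.883). Perlecan, *hspg2*, stood at 1107, 1005 and 1207 in mutant and 1127, 1229 and 1449 in WT replicates 1 to 3, and decorin, *dcn*, at 518 ± 33.2 in mutant and 463 ± 43.5 in WT hearts, and both overlapped, as did serglycin, *srgn* (402 ± 40.7 in mutant and 364 ± 47.4 in WT hearts).

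Chondroitin sulphate, the sugar side chain of versican, is built by enzymes of which 21 genes were tested, with a median of 0.06 and 2 in each direction at an unadjusted p under 0.05, where all tested genes had 3.25% higher and 3.35% lower. In 3 of the 21 the groups did not overlap, against 11.1% of all tested genes in either direction. These were *csgalnact2*, which starts or extends the chain (87.3 ± 18.5 in mutant and 126 ± 8.19 in WT hearts), the low *chpfb* (12.7 ± 4.73 in mutant and 27.3 ± 10.2 in WT hearts), and the xylose kinase gene *fam20b* (193 ± 56.6 in mutant and 135 ± 19.9 in WT hearts). Values of *fam20b* were 161, 159 and 258 in mutant and 123, 158 and 124 in WT replicates 1 to 3. Its groups were thus barely apart, at 159 against 158. The most abundant of the others, the polymerising factor gene *chpfa*, averaged 328 ± 19.7 in mutant and 296 ± 30.9 in WT hearts and overlapped.

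Proteases of the Adamts family other than *adamts9* were 15 tested genes with a median log2 change of −0.10, of which 9 were below 0, 2 had an unadjusted p under 0.05, both lower, and 3 did not overlap, all lower in mutant hearts. Over all tested genes, 3.25% were higher and 3.35% lower at that p. Groups did not overlap in 11.1% of all tested genes in either direction, and in 5.53% with mutant lower. The 3 Adamts genes that did not overlap were *ADAMTS7* (223 ± 25.7 in mutant and 275 ± 24.6 in WT hearts), *adamts1* and *adamts8a*. The versican-cutting relative *adamts1* stood at 120, 103 and 108 in mutant and at 153, 123 and 140 in WT replicates 1 to 3 (limma, adjusted p = 0.755). The most abundant member, *adamts15a* (485 ± 88.3 in mutant and 471 ± 4.04 in WT hearts), overlapped, as did *adamts5*, known to cut versican in mammals and chosen after its values were seen (99 ± 13.1 in mutant and 88.3 ± 7.57 in WT hearts).

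Likeness to a cardiac jelly gene was measured as the root mean square distance between log2 profiles, each centred on its mean over the 6 libraries. The 10176 genes compared were tested genes with a mean of at least 50. Genes whose symbol is a clone name and the cardiac jelly genes themselves were left out. Closest to *vcana* were *sgce*, which encodes epsilon-sarcoglycan, at a distance of 0.0655, *LRRC75B* at 0.0799, the TGF-beta receptor gene *tgfbr1b* at 0.0987 and the kinase gene *mylk4a* at 0.105. For *has2* they were *mylk4a* at 0.0253, *sgce* at 0.0492, the phosphatase gene *ptpn11b* at 0.0520 and the serine protease gene *htra1a* at 0.0582. For *adamts9* they were *ccdc137* at 0.0992, *cpne5b* at 0.0993, *phb2b* at 0.112 and *hacd2* at 0.120. All of these genes were chosen by their profile in the same libraries, so a genotype difference like that of the member was fixed by the choice. None of these passed the adjusted p. The gene with the lowest unadjusted p of them, *tgfbr1b*, stood at 224, 232 and 258 in mutant and at 164, 148 and 166 in WT replicates 1 to 3 (limma, adjusted p = 0.224).

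Across the alternatives tried, the direction of *vcana*, *has2*, *has3*, *vcanb*, *tmem2* and *adamts9* did not turn. The adjusted p of *vcana* lay between 0.00963 and 0.624 over the 11 settings that kept all libraries, that of *has2* between 0.0967 and 0.698, and that of *adamts9* between 0.0575 and 0.679.

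**Figure D5:**
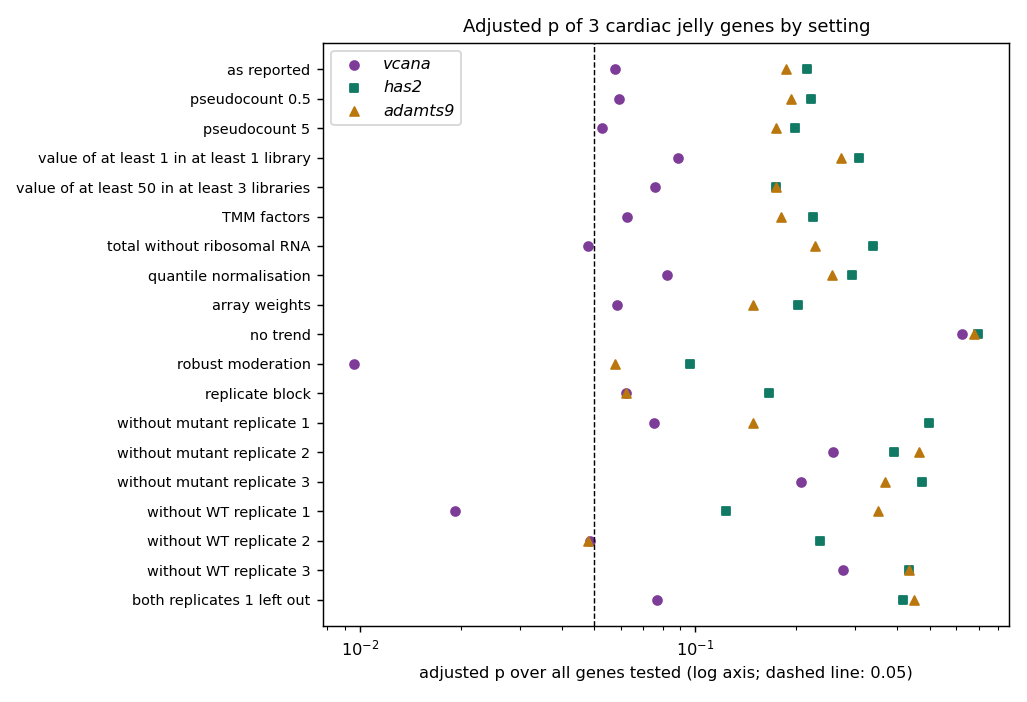
Adjusted p over all genes tested (x axis, log scale, with a dashed line at 0.05) of *vcana*, *has2* and *adamts9* under each setting (rows). The total without ribosomal RNA left out only the nuclear part of that RNA. In that row and the row without WT replicate 2, the unadjusted p of *vcana* (limma) was larger than as reported. Points of *vcana* lie left of the line in 4 rows (total without ribosomal RNA, robust moderation, without WT replicate 1, without WT replicate 2), those of *adamts9* in 1 row (without WT replicate 2) and those of *has2* in none.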

How the data were processed

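Total RNA from 6 pools of hearts was extracted with the Qiagen miRNeasy kit, and 6.5 ng entered the Clontech Pico Input Mammalian preparation for single reads of 75 nt, a minimum of 30 M (megareads) per library, per the labels' protocols. STAR 2.4.0a and featureCounts 1.4.5-p1, with danRer10 (GRCz10), are named in the submitters' processing notes. The values the authors deposited are a score: read counts scaled between libraries and rounded. This was read from the values. In 3 libraries, 5 to 12 of the integers up to 100 are missing, as after multiplying by a factor of 1.05 to 1.13, and factors of 0.880 to 0.960 were fitted to the others. That gives about 20.3 to 23.8 M assigned reads per library. Rounding merged counts, so no count model was run. Neither the scaling method nor strand use was stated in the labels.

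The scale of analysis was log2(value + 1), on which fold changes of low genes are understated, in limma 3.58.1 (R 4.3.3) with a variance trend, two-sided. Tested genes had values of 10 or more in 3 or more libraries. The replicates are described as biological pools. The scripts were tested on simulated data.

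The genes described and the lists were chosen with earlier results of these data known. From each list, up to 4 genes were named: those past the threshold, then non-overlapping ones by unadjusted p, then the most abundant. Neighbouring genes were named by position, and *adamts5* and marker genes after their values were seen. Symbols missing from the table (*bcanb*, *ncana*, *csgalnact1a*, *csgalnact1b*, *adamts8b*, *adamts16*, *adamts20*, *cnmd*, *hbae1.1*) were not analysed here. Alternatives were other pseudocounts, value filters, scalings, library weights, variance moderation, a replicate block and libraries left out.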

Additional observations from a re-analysis of the deposited data

How the results depend on the processing

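Over all genes, 2 were higher and 5 lower in mutant hearts. Where a total without ribosomal RNA is named, only nuclear ribosomal RNA was left out and the mitochondrial part was kept. Scaling by the total without ribosomal RNA gave 13 higher and 22 lower, robust moderation 9 and 13, no variance trend 0 and 0 (limma, with 577 and 599 at an unadjusted p under 0.05), and leaving out both replicates 1, chosen after seeing the data, 1 and 1. Leaving out single libraries gave 2 to 34 higher and 3 to 12 lower, the upper ends without WT replicate 2. Of the cardiac jelly genes, 1 passed with the total without ribosomal RNA (*vcana*, log2 change 0.64, adjusted p = 0.0478) and 1 with robust moderation (*vcana*, 0.61, adjusted p = 0.00963). With the total without ribosomal RNA, the unadjusted p of *vcana* rose from 2.89e-05 to 5.98e-05 (limma). The pass under that scaling thus came with more calls over all genes and not with a smaller p of *vcana*. With single libraries left out, 0 to 2 passed. The log2 change then ranged from 0.55 to 0.71 for *vcana*, from 0.39 to 0.50 for *has2* and from −0.69 to −0.49 for *adamts9*. It ranged from 0.37 to 0.93 for *has3*, from 0.02 to 0.25 for *vcanb* and from −0.08 to −0.03 for *tmem2*. Among link protein genes it ranged from −0.08 to 0.35 for *hapln1a*, from −0.02 to 0.16 for *hapln1b* and from −0.07 to 0.15 for *hapln3*. These last 3 turned sign near 0. The log2 change was −0.0798 for *hapln1a* without WT replicate 2. For *hapln1b* it was −0.0237 without mutant replicate 1 and −0.00636 without WT replicate 3. For *hapln3* it was −0.0668, −0.00998 and −0.00998 without mutant replicate 1, WT replicate 2 and WT replicate 3. The cause was not tested.

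Over all genes tested, same-numbered libraries did not deviate together (correlations of 0.02, −0.02 and −0.02 for numbers 1 to 3). Only mutant replicate 1 correlated best with its own number, at 0.0217 against 0.0204 with WT replicate 3. Of the 10 cardiac jelly genes, 6 were highest in replicate 1 of both genotypes, and the share of all tested genes with that layout was not computed. WT replicate 1 was the highest WT library for every cardiac jelly gene but *has1*. With the replicate block, 8 genes were higher and 7 lower, and *vcana* and *adamts9* both had a limma adjusted p of 0.062. Depth was lowest for *has1*, at about 3.80 to 12.3 reads per library.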
